A study of Homo sapiens with 3 samples.

Results

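The genes described here encode corepressor, Polycomb and silencing complexes: the SIN3, NuRD, CoREST, NCoR and mitotic deacetylase complexes, Polycomb repressive complexes, HP1 proteins, histone H3 lysine 9 methyltransferases and the DNA methylation machinery. They were chosen by name, as 37 listed symbols out of the 23277 gene symbols measured, and all 37 were present in each library. Of the 37, 35 averaged 1 FPKM or more across the libraries and were kept for comparison, among 11399 genes kept in all. The other 2, RING1 and EHMT2, were listed at exactly 0 in every library.

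The cells were CaSki, an established human line derived from an epidermoid carcinoma of the cervix that carries human papillomavirus. Total RNA was sequenced from 3 groups of 1 library each. The first carried the empty pMSCV retroviral vector and received siGFP, an siRNA against GFP used as control. The second carried pMSCV/FLAG-NANOG, a FLAG-tagged NANOG transgene, with siGFP, and the third carried the same transgene with siHDAC1, an siRNA against the histone deacetylase gene HDAC1. The labels do not say whether the transduced cells were pools or clones. A group of 1 library leaves every difference without replicates, so neither p-values nor errors are given. Values are FPKM, a fragment count scaled to transcript length and to the size of the library. They already correct for transcript length, so that levels of different genes can be set side by side. The number of reads behind a value is unknown.

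The genes the groups are named after were read first. NANOG measured 0.0357 FPKM in the empty vector library, against 298 FPKM in the NANOG library with siGFP and 325 FPKM in that with siHDAC1. HDAC1 was at 19.0 FPKM, 108 FPKM and 12.8 FPKM in the same order, so the library with NANOG and GFP siRNA stood above both others. Of 8 squamous epithelial markers 7 were at 1 FPKM or more in all 3 libraries, with TP63 the exception, and their summed level ranged from 2854 to 3297 FPKM. Summed levels ranged from 2.76 to 4.80 FPKM for 7 fibroblast markers and from 0.432 to 0.574 FPKM for 5 endothelial markers. For 6 leukocyte markers they ranged from 54.2 to 65.1 FPKM, and LCP1 and CD68 alone of these reached 1 FPKM in every library.

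HDAC1 works as the catalytic subunit of several multiprotein complexes, which bring it to DNA through sequence-specific factors. SIN3, NuRD and CoREST contain HDAC1 or HDAC2, while NCoR contains HDAC3. Polycomb complexes act in another way: PRC2 methylates histone H3 at lysine 27, and PRC1 ubiquitinates histone H2A. HP1 proteins bind histone H3 methylated at lysine 9, the mark of constitutive heterochromatin, and DNA methylation is copied onto new strands by DNMT1 with the help of UHRF1. In pluripotent cells NANOG has been found together with NuRD and SIN3 components.

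Most of these genes differed little between the libraries, and CBX5, which encodes HP1 alpha, was the exception. On the scale used throughout, the difference of log2(FPKM + 1), CBX5 stood 1.08 higher with NANOG than with empty vector, and 1.12 lower with HDAC1 siRNA than with GFP siRNA in NANOG cells (a difference of -1.12). This scale understates the change of low genes. Among the 35 genes kept, CBX5 was alone in passing 1.5-fold on this scale, higher in the first comparison and lower in the second. Its sequences are shown first, since the values of CBX5 set it apart from the other 2 HP1 genes. The sequences come from RefSeq promoters on GRCh38.p14, whereas the expression values were made on hg19. Annotated exons were left out of the 250 bases before each start, which left no stretch of 50 bases or more for CBX3. Capitals mark matches to 5 short motifs on either strand.

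CBX1, chr17:48101199-48101267, minus strand: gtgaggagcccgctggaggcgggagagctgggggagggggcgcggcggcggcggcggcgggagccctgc
CBX5, upstream start, chr12:54280134-54280192, minus strand: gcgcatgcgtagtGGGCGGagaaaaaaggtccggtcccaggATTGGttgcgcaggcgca
CBX5, downstream start, chr12:54259593-54259836, minus strand: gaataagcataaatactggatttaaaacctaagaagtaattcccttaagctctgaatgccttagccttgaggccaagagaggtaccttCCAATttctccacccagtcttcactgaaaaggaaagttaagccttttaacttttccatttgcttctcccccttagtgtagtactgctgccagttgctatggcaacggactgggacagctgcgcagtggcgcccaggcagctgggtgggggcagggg

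The upstream CBX5 stretch lies between the starts of CBX5 and of HNRNPA1, which encodes an RNA-binding protein and is transcribed away from it. It holds 1 GC box (GGGCGG) and 1 CCAAT box (read as ATTGG on this strand). The downstream stretch lies before an internal start and holds 1 CCAAT box, and the CBX1 stretch holds none of the 5 motifs. Over the whole 250 bases before each start, 28 of the 35 members with an entry in the promoter table held a GC box at 1 start or more. By start, 41 of 56 member promoters (73.2%) held it, against 42.6% of all 35116 promoters. A CCAAT box was found in 37.5% of member promoters and 32.0% of all, and the ETS word CCGGAAG in 14.3% and 8.52%. Any of the E2F words TTTCCCGC, TTTGGCGC, TTTCGCGC or TTTGCCGC was found in 8.93% and 2.79%; the members were DNTTIP1, SIN3A, SUZ12 and UHRF1. TAATGG, a core that homeobox proteins such as NANOG bind, was found in 12.5% and 5.90%; the members were CHD3, GATAD2B, MBD2, RBBP4 and SETDB1. SAP18 and TRIM28 had no entry. The 35116 promoters were not restricted to the genes kept here, and starts of the same gene can share bases. The shares of members and of all promoters are therefore not like for like. A match is a description of these letters and says nothing of whether a factor binds there.

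The HP1 genes encode adaptor proteins of heterochromatin. CBX5 was at 6.55 FPKM with empty vector, 15.0 FPKM with NANOG and GFP siRNA, and 6.38 FPKM with NANOG and HDAC1 siRNA. The middle library was thus high, while the outer ones were close to each other: NANOG with HDAC1 siRNA differed from empty vector by -0.03. From here on, values of a gene follow this order of the libraries. CBX1, which encodes HP1 beta, was at 124, 117 and 118 FPKM. CBX3, which encodes HP1 gamma and is also found in active genes, was at 146, 133 and 140 FPKM. These levels were far above CBX5 in each library, and neither gene differed by 0.2 or more in any comparison. CBX5 made up 2.38%, 5.66% and 2.41% of the summed FPKM of the HP1 genes, a sum that stood at 276, 265 and 264 FPKM.

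**Figure D1:**
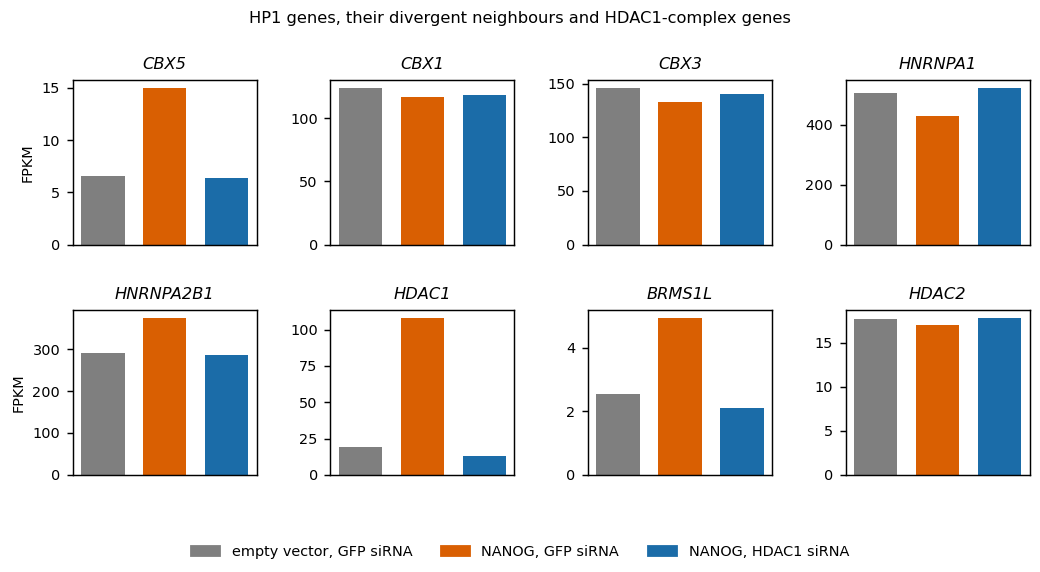
FPKM (vertical axes, each starting at 0 with its own range) of the 3 HP1 genes, the divergent neighbours HNRNPA1 and HNRNPA2B1, and HDAC1, BRMS1L and HDAC2; each bar is 1 library, with no error to show. CBX5, HDAC1, BRMS1L and HNRNPA2B1 are highest with NANOG and GFP siRNA (orange), whereas HNRNPA1 is lowest there.

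By the ratio of its highest to its lowest value after adding 1 FPKM, 2.17, CBX5 ranked 185 among the 11399 genes. The median ratio was 1.13 over the 35 members and 1.19 over all genes kept, and the next member was SAP30 at 1.40. In all, 95 genes (0.833%) passed 1.5-fold in the same pattern as CBX5, being higher in the NANOG GFP siRNA library than in either other library. CBX5 was the 1 member among them. The opposite pattern, lowest in that library by 1.5-fold on both sides, held for 39 genes (0.342%) and no member. HDAC1 itself was in the first pattern, as was BRMS1L, a SIN3 subunit at 2.54, 4.94 and 2.12 FPKM. KRT5 and KRT6A, keratin genes among the squamous markers, followed it too, at 555, 959 and 540 FPKM and 23.6, 39.8 and 24.5 FPKM. The other 6 of the 8 squamous markers went the other way with NANOG, with differences from -0.57 (KRT14 and KRT17) to -0.25 (EPCAM). The value of KRT6A is uncertain, since KRT6B and KRT6C are near-identical. CBX5 thus shared a pattern that a single library carried, and the part of that library in the CBX5 value was not tested. The comparison that does not use that library showed no such difference.

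Both CBX5 and CBX3 have a divergent neighbour, whose values are given beside them. HNRNPA1, which starts next to CBX5 on the other strand, was at 504, 430 and 522 FPKM, lowest where CBX5 was highest. HNRNPA2B1, another RNA-binding protein gene, overlaps CBX3 on the other strand and was at 291, 374 and 286 FPKM, while CBX3 differed by less than 0.2 in every comparison. Whether reads were counted by strand is not given in the sources used here, so reads of CBX3 and HNRNPA2B1 in the shared stretch cannot be told apart. Of the 37 members, 10 have pseudogenes named after them in GENCODE release 29, among them CBX3 with 9, RBBP4 with 6, CBX1 with 5 and CBX5 with 1. Values of such genes are uncertain where the counting could split reads between copies.

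**Figure D2:**
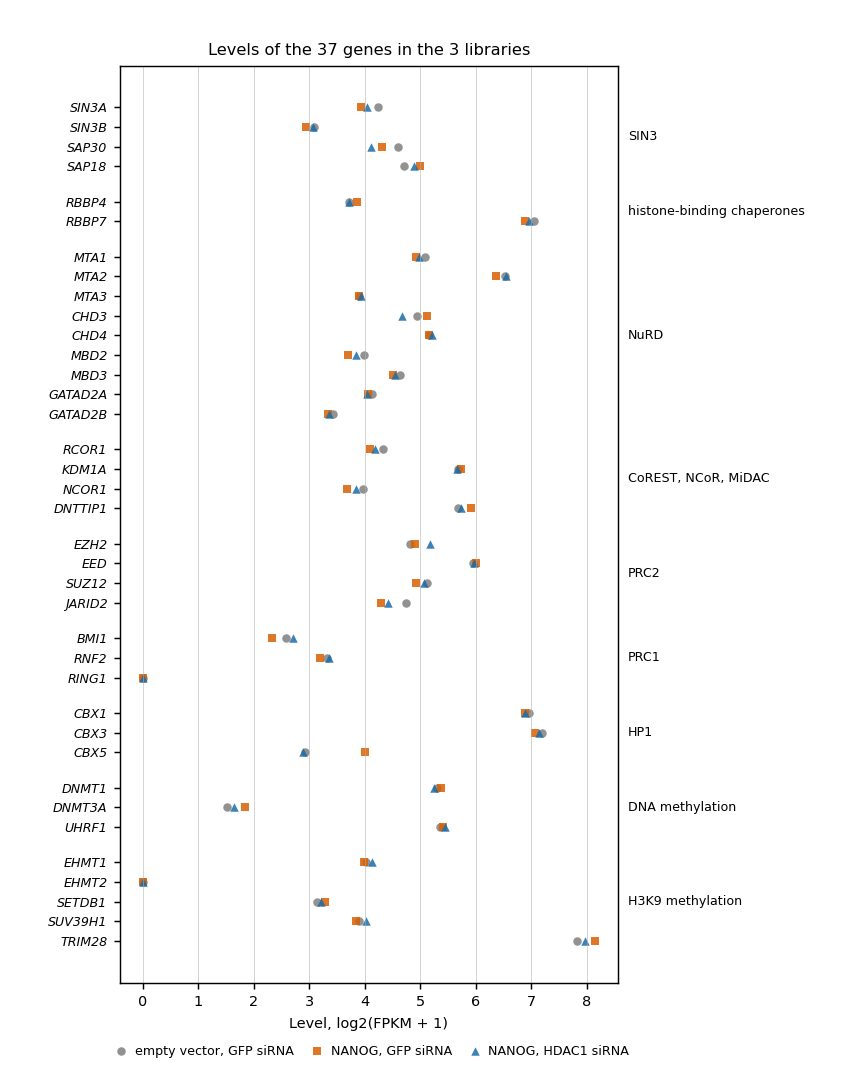
Level of each of the 37 genes as log2(FPKM + 1) (horizontal axis), grouped by complex; each symbol is 1 library. The 3 symbols lie close together for most genes, CBX5 stands apart in the NANOG GFP siRNA library (square), and RING1 and EHMT2 lie at 0.

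The counts of members past 1.5-fold are given beside the shares of all genes kept. With NANOG against empty vector, 1 of 35 was at least 1.5-fold higher (CBX5), where 3.47% of all genes kept were, and 0 of 35 were 1.5-fold lower, where 5.25% were. With HDAC1 siRNA against GFP siRNA in NANOG cells, 0 of 35 were higher by 1.5-fold (0.675% of all genes) and 1 was lower, CBX5 again (1.43%). NANOG with HDAC1 siRNA against empty vector had 0 higher (1.78%) and 0 lower (3.44%). In a list of 35 genes, counts of 0 or 1 are near these shares and say nothing particular to the members. In bulk RNA, fewer cells of a type and less RNA per cell cannot be told apart.

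A looser limit, a difference of 0.322 in size, named 5 more genes. JARID2 was lower with NANOG than with empty vector, and CBX5 alone was higher, where 15.4% of all genes were lower and 13.0% higher. BMI1 was higher with HDAC1 siRNA in NANOG cells, while CHD3 and CBX5 were lower, where 4.95% of all genes were higher and 6.33% lower. EZH2 was higher and SAP30 lower with NANOG and HDAC1 siRNA than with empty vector, where 7.99% of all genes were higher and 10.9% lower. JARID2 in the third comparison, and DNMT3A and TRIM28 in the first, lay just inside it. The share of members inside this limit was 94.3%, 91.4% and 94.3% in the 3 comparisons, against 71.5%, 88.7% and 81.1% of all genes kept. The comparisons share libraries, so they do not support each other.

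The median difference of the 35 members was -0.08 for NANOG against empty vector, 0.04 for HDAC1 siRNA against GFP siRNA and -0.01 for NANOG with HDAC1 siRNA against empty vector. Over all genes kept the medians were -0.01, 0.01 and 0.00. The NANOG GFP siRNA library held the lowest of the 3 values for 19 of 35 members (54.3%), against 37.3% of all genes. It held the highest for 11 (31.4%), against 33.1%. These counts take in differences of any size and rest on the FPKM as given. Rescaling each library to the same sum over all symbols changed the sign of 1, 8 and 14 of the 35 members in the 3 comparisons. No member with a difference of 0.2 or more in size changed sign under any of the scalings tried. Smaller differences are given as values only.

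**Figure D3:**
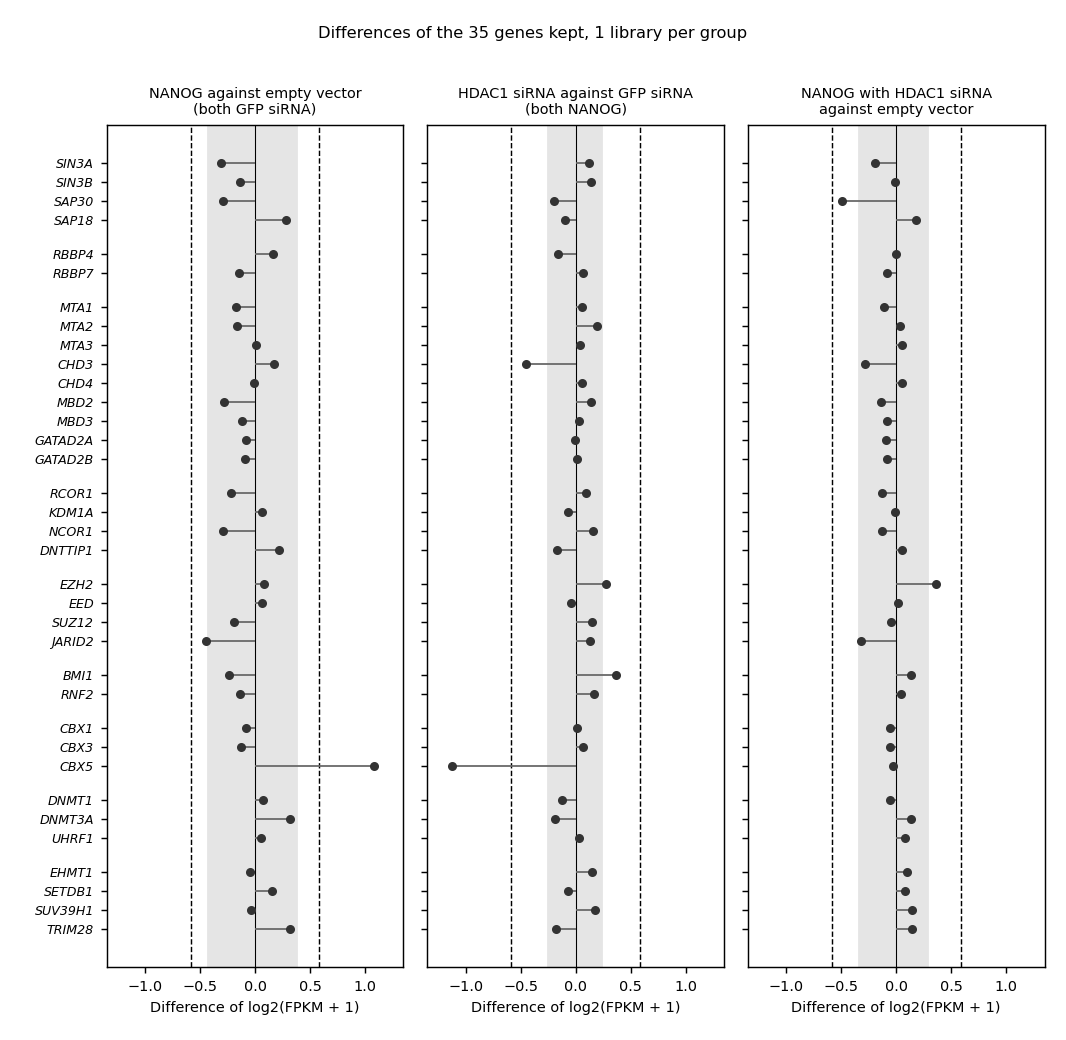
Difference of log2(FPKM + 1) for the 35 genes kept (horizontal axes) in 3 comparisons of 1 library with 1 library; grey bands span all but the outermost genes of the 11399 kept (lowest and highest decile left out) and dashed lines mark 1.5-fold. CBX5 passes the dashed line on the right in the first panel and on the left in the second, and no gene passes it in the third.

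The SIN3 complex holds HDAC1 on a large scaffold protein. The scaffold gene SIN3A was at 17.9 FPKM with empty vector, 14.2 FPKM with NANOG and 15.5 FPKM with NANOG and HDAC1 siRNA, a difference of -0.31 for NANOG. Its paralogue SIN3B was at 7.46, 6.66 and 7.42 FPKM. SIN3A made up 70.6%, 68.1% and 67.7% of the sum of both scaffolds, so the balance between them hardly moved. SAP30, which stabilises the binding of HDAC1 to SIN3, was at 23.2, 18.9 and 16.3 FPKM, with HDAC1 siRNA lowest. Its difference of -0.49 against empty vector was the largest of any member in the comparison that leaves out the NANOG GFP siRNA library. SAP18, a small subunit that also takes part in RNA processing, went the other way with NANOG, at 25.2, 30.8 and 28.6 FPKM (0.28).

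RBBP4 and RBBP7 are histone-binding proteins shared by SIN3, NuRD and PRC2. RBBP7 was the more abundant at 131, 118 and 124 FPKM, and RBBP4 was at 12.1, 13.6 and 12.1 FPKM. RBBP4 thus made up 8.42%, 10.3% and 8.86% of the pair, in each library the minor form by FPKM. It has 6 named pseudogenes, which bears on how its reads were assigned.

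NuRD joins an ATP-dependent remodeller to HDAC1, methyl-CpG-binding proteins and MTA scaffolds. MTA2, the scaffold of highest level, was at 91.1, 81.2 and 92.8 FPKM, MTA1 at 33.0, 29.2 and 30.4 FPKM and MTA3 at 13.8, 13.9 and 14.3 FPKM. The order of the 3 scaffolds was the same in every library, and no MTA gene differed by 0.2 or more in any comparison. MBD2, which binds methylated CpG, was at 14.8, 12 and 13.3 FPKM, a difference of -0.28 with NANOG. MBD3, its paralogue with little affinity for methylated DNA, was at 23.7, 21.8 and 22.3 FPKM. GATAD2A, which links the MBD proteins to the remodeller, was at 16.5, 15.6 and 15.5 FPKM and its paralogue GATAD2B at 9.80, 9.13 and 9.23 FPKM. Both GATAD2 genes were among the steadiest members.

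The remodeller genes CHD3 and CHD4 parted in the HDAC1 siRNA library. CHD4 was at 34.8, 34.5 and 36.0 FPKM, differing by at most 0.06 in size. CHD3 was at 29.8, 33.7 and 24.4 FPKM, lowest with HDAC1 siRNA, with a difference of -0.45 against GFP siRNA in NANOG cells and -0.28 against empty vector. CHD3 made up 46.1%, 49.4% and 40.4% of the sum of both. CHD3 also overlaps a gene on the other strand that the files list under its older symbol LSMD1, which encodes a subunit of an acetyltransferase complex, at 16.4, 19.6 and 16 FPKM. The part of the overlap in the CHD3 value was not tested.

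CoREST pairs HDAC1 with the demethylase KDM1A, which removes methyl groups from histone H3 lysine 4. KDM1A was at 50.3, 52.3 and 49.9 FPKM, and RCOR1, the CoREST scaffold, at 19.0, 16.1 and 17.2 FPKM (-0.22 with NANOG). KDM1A differed by less than 0.2 in every comparison, and RCOR1 in the others. NCOR1, the scaffold that activates HDAC3, was at 14.6, 11.8 and 13.3 FPKM (-0.29 with NANOG). DNTTIP1, a scaffold of the mitotic deacetylase complex, was at 50.4, 59.0 and 52.3 FPKM (0.22 with NANOG). With NANOG against empty vector, DNTTIP1 thus stood higher while RCOR1 and NCOR1 stood lower. None of the 3 differed by 0.2 or more between the HDAC1 siRNA and GFP siRNA libraries.

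PRC2 consists of the methyltransferase EZH2, the reader EED and the scaffold SUZ12, with JARID2 as a cofactor that helps to recruit it. EZH2 was at 27.3, 28.8 and 35.3 FPKM. The last library stood above both others, by 0.28 against GFP siRNA in NANOG cells and by 0.36 against empty vector. EED was at 60.9, 63.4 and 61.6 FPKM and SUZ12 at 33.7, 29.3 and 32.6 FPKM, so the other core subunits did not share the pattern of EZH2. JARID2 was at 25.7, 18.6 and 20.4 FPKM, highest with empty vector, with differences of -0.45 for NANOG and -0.32 for NANOG with HDAC1 siRNA. EZH2 made up 75.5%, 78.8% and 79.9% of its sum with EZH1, the paralogue of quiescent tissues.

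Of the PRC1 genes, BMI1 encodes a ring-finger partner and RNF2 the catalytic ubiquitin ligase. BMI1 was at 4.98, 4.05 and 5.54 FPKM, with 0.37 for HDAC1 siRNA against GFP siRNA and -0.24 for NANOG against empty vector. Against empty vector, the HDAC1 siRNA library differed by 0.13. RNF2 was at 9.01, 8.12 and 9.28 FPKM. RNF2 differed by less than 0.2 in every comparison. BMI1 overlaps the read-through gene COMMD3-BMI1 on the same strand, and its value is uncertain to that extent. By FPKM, BMI1 was a minor PCGF gene at 5.54%, 4.74% and 5.88% of the family's sum, in which PCGF2 held 35.1%, 37.8% and 35.4%.

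RING1, the paralogue of RNF2, and EHMT2, which encodes the H3K9 methyltransferase G9a, were listed at 0 in all 3 libraries, and so were most of their neighbours on chromosome 6. In the order of coding genes along the chromosome, 29 of the 40 neighbours of EHMT2 (72.5%) and 23 of the 40 neighbours of RING1 (57.5%) were at 0 in every library. Among the other 775 coding genes of chromosome 6 it was 24.1%, and among all 16985 coding genes matched 17.1%. Genes that every cell uses were among them: RPS18, a ribosomal protein gene near RING1, and CSNK2B, the regulatory subunit gene of casein kinase II near EHMT2. RING1 and EHMT2 are therefore only listed at 0, and nothing is said of their expression. The PRC2 cofactor gene PHF1, a neighbour of RING1, stood at 0.188, 0.302 and 0.251 FPKM.

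**Figure D4:**
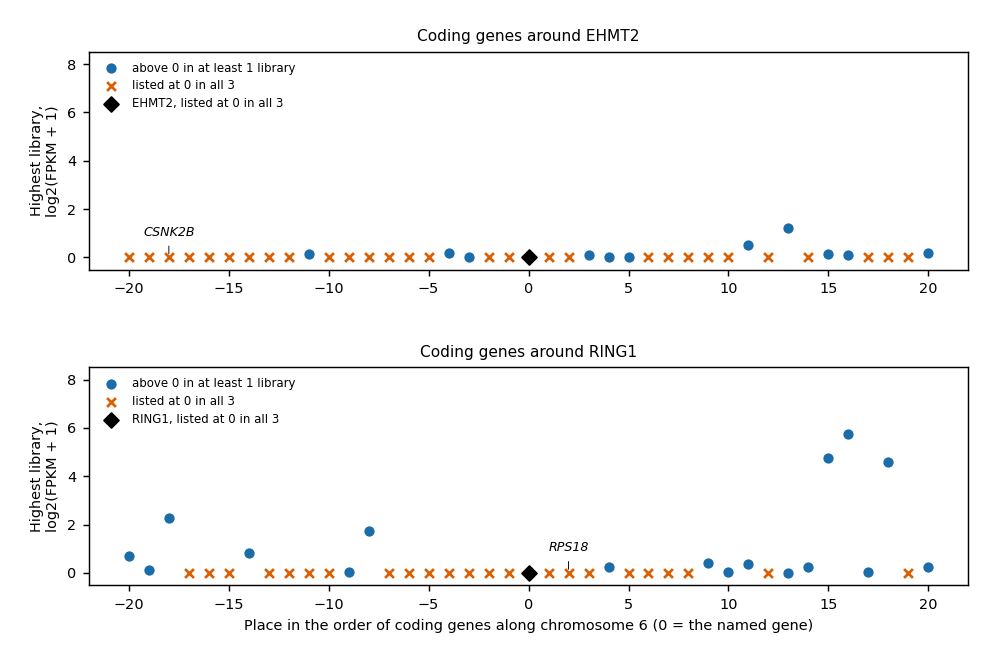
Highest of the 3 libraries as log2(FPKM + 1) (vertical axes) for the 20 coding genes on either side of EHMT2 (top) and RING1 (bottom), placed by gene order and not by distance (horizontal axes). Crosses mark genes at 0 in all 3 libraries, 29 and 23 of 40 neighbours, among them CSNK2B and RPS18.

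Of the DNA methylation genes, DNMT1, the maintenance methyltransferase, was at 38.4, 40.3 and 37 FPKM. UHRF1, which brings DNMT1 to hemimethylated DNA, was at 39.9, 41.4 and 42.3 FPKM. The maintenance pair was thus level across the libraries, with no difference of 0.2 or more. DNMT3A, a methyltransferase that sets new marks, was the lowest member above 0, at 1.87, 2.57 and 2.14 FPKM (0.32 with NANOG). Together with DNMT3B, it was the smaller share of the summed DNMT FPKM, of which DNMT1 held 91.3%, 90.9% and 90.3%.

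The H3K9 methyltransferase genes that could be read were steady. SUV39H1, which trimethylates this residue in heterochromatin, was at 13.8, 13.4 and 15.3 FPKM, and EHMT1, the partner of G9a, at 15.3, 14.8 and 16.6 FPKM. SETDB1, which works with TRIM28 at retroelements, was at 7.77, 8.70 and 8.26 FPKM. None of these differed by 0.2 or more in any comparison. TRIM28, the corepressor of KRAB zinc finger proteins, was the most abundant of the 37 genes, at 226, 283 and 249 FPKM (0.32 with NANOG). By FPKM it stood well above SETDB1, its partner enzyme, in every library.

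The remaining subunits and cofactors of the same complexes came from lists of other genes, of which 91 were measured and 85 kept. Of these 85, 2 were at least 1.5-fold higher with NANOG than with empty vector, HDAC1 (2.45) and BRMS1L (0.74), and 5 were lower. These counts are near the 3.47% and 5.25% of all genes kept. Among the 5 were SALL4, a zinc finger protein that binds NuRD (-0.99; 8.66, 3.86 and 5.73 FPKM), ZNF217, TBL1X and KDM2B. With HDAC1 siRNA against GFP siRNA, 0 were higher and 2 lower, HDAC1 (-2.98) and BRMS1L (-0.93). Of all genes kept, 0.675% were higher and 1.43% lower in that comparison. Against empty vector, NANOG with HDAC1 siRNA had 0 higher and 1 lower, the NuRD-associated reader ZMYND8 (-0.64; 24.5, 19.5 and 15.3 FPKM). The shares of all genes kept there were 1.78% higher and 3.44% lower. CDK2AP1, a small NuRD subunit, lay just inside the limit with NANOG (-0.55; 73.5, 49.9 and 58.0 FPKM). The medians of the 85 genes were -0.08, 0.04 and -0.06, beside -0.01, 0.01 and 0.00 over all genes kept.

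Of the lower genes, some belong to NCoR or CoREST. TBL1X, a WD40 subunit of NCoR, was at 10.5, 5.99 and 6.69 FPKM (-0.72 with NANOG). ZNF217, a zinc finger protein of CoREST, was at 21.9, 12 and 16.4 FPKM (-0.81). They come from the list of CoREST, NCoR, mitotic deacetylase and CtBP genes, of which 16 were kept, with a median of -0.24. HDAC3, the enzyme of NCoR, was at 48.3, 42.2 and 39.2 FPKM, and HDAC2, the paralogue of HDAC1, at 17.7, 17 and 17.8 FPKM.

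In the other lists few genes passed 1.5-fold. By comparison and direction, from 0.675% to 5.25% of all genes kept passed it. The 14 further SIN3 genes had a median of -0.03 with NANOG, with SUDS3, a SIN3 subunit, at -0.41 for HDAC1 siRNA against GFP siRNA. Of 22 further PRC1 genes only KDM2B, which brings a PRC1 variant to CpG islands, passed it, at 10.6, 6.39 and 7.6 FPKM (-0.66). PHC2, a polyhomeotic subunit, followed at 45.2, 34 and 46.9 FPKM. The PRC2 accessory genes MTF2 and PHF19 stood at 9.92, 8.46 and 11.9 FPKM and at 74.1, 92.2 and 99.6 FPKM. None of the 5 further PRC2 genes, 12 H3K9 methylation genes and 10 DNA methylation genes kept passed 1.5-fold in any comparison. TET3, a dioxygenase that oxidises methylcytosine, had the largest difference in the DNA methylation list (-0.54 with NANOG).

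The demethylases that remove repressive methyl marks formed a further list. Of 10 histone demethylase genes kept, 3 were at least 1.5-fold lower with NANOG than with empty vector and 8 were below 0, with a median of -0.52. Over all genes kept, 5.25% were lower by that fold and 50.8% were below 0. KDM4B, an H3K9 demethylase, was at 8.2, 4.33 and 4.93 FPKM (-0.79), and KDM3A, another, at 34.5, 19.8 and 25.0 FPKM (-0.77). KDM6A, an H3K27 demethylase, was at 20.9, 13.1 and 16.8 FPKM (-0.63). With HDAC1 siRNA against GFP siRNA the median of the 10 was 0.12 and none passed 1.5-fold. Of all genes kept, 0.675% were higher and 1.43% lower there. For NANOG with HDAC1 siRNA against empty vector the median was -0.30, with 8 below 0 and 1 lower by 1.5-fold, KDM4B (-0.63). Over all genes kept, 50.2% were below 0 and 3.44% lower by that fold. The 14 SWI/SNF genes, whose complex opposes Polycomb, had medians of -0.03, 0.07 and -0.01 in the 3 comparisons. Among them, ARID1A was at 19.5, 12.7 and 17.1 FPKM (-0.58 with NANOG) and SMARCC2 at 17.9, 19.4 and 14.3 FPKM. SMARCA4 was listed at 0 with empty vector and at 19.7 and 21.0 FPKM in the NANOG libraries, and no fold is given for it. No test of the difference between lists was made.

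**Figure D5:**
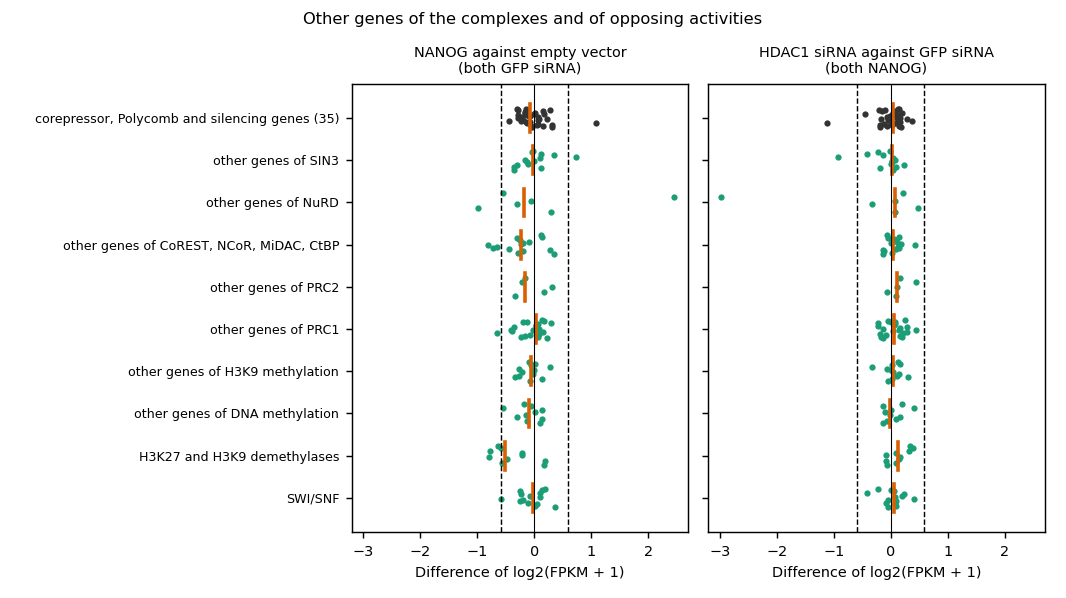
Difference of log2(FPKM + 1) (horizontal axes) for the 35 members (black) and for other genes of the same complexes and of opposing activities (green), 1 point per gene; orange bars are medians and dashed lines mark 1.5-fold. The demethylases have the lowest median with NANOG, -0.52, and HDAC1 is the point at 2.45 in the left panel and -2.98 in the right.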

How the data were processed

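TopHat2 and Cufflinks, on hg19, are named per the submitters' processing notes; their versions, the annotation and the strand handling are not given there. Per the labels' protocols, libraries came from total RNA with a stranded kit. The authors deposited FPKM values, 1 per symbol and library. Groups follow the sample titles.

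Symbols of small RNAs (1640) were removed, and genes averaging 1 FPKM or more were kept. Each difference is that of log2(FPKM + 1), the pseudocount being 1 FPKM; a gene was counted past 1.5-fold on that scale. No test was possible with 1 library per group. In the lists, no fold was computed for a gene at 0 in 1 library but at 5 FPKM or above elsewhere. The steps were tested on simulated data. Every member is named; other listed genes are named past 1.5-fold, or as the list's 2 largest differences. The members and lists were chosen with earlier results of these data known. Beyond that rule, PHF1, HNRNPA1, HNRNPA2B1, LSMD1, RPS18 and CSNK2B and the markers, with KRT5 and KRT6A, were named after their values were seen. Some items are not reported here. Gene order came from RefSeq (GRCh38.p14). Alternatives were pseudocounts of 0.1 and 0.5 FPKM, no filter, a filter at 5 FPKM, and 4 scalings. Python 3.11.15, numpy 2.4.6, pandas 2.3.3 and matplotlib 3.10.9 were used.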

Additional observations from a re-analysis of the deposited data

How the results depend on the processing

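CBX5 passed 1.5-fold in the first 2 comparisons under every pseudocount and scaling tried. The filter sets which genes are kept and cannot change the difference of CBX5. That difference was between 1.08 and 1.18 for NANOG against empty vector. For HDAC1 siRNA against GFP siRNA it was between -1.22 and -0.98. The third comparison lay between -0.04 and 0.09. At 2-fold the counts of members stayed as at 1.5-fold. At a limit of 0.322 on the log2 scale they moved to 1 lower for NANOG against empty vector, to 1 higher and 2 lower for HDAC1 siRNA against GFP siRNA, and to 1 higher and 1 lower for NANOG with HDAC1 siRNA against empty vector; a looser limit takes more genes by its construction. Rescaling to TPM over all symbols gave medians of the members of 0.22 for HDAC1 siRNA against GFP siRNA and 0.12 for NANOG with HDAC1 siRNA against empty vector, where the medians over all genes moved to 0.18 and 0.13. It also turned the split of all genes past 1.5-fold from 77 higher and 163 lower to 300 higher and 84 lower in the second comparison, and from 203 and 392 to 435 and 279 in the third. Small RNA symbols held 23.1% of the FPKM sum with NANOG and GFP siRNA and 16% with HDAC1 siRNA. Of the members' single differences under these alternatives, 762 moved by less than 0.1 and 72 by more, a limit set by choice because no spread between replicates exists. Changing the filter cannot move a gene's own difference, so the filter entries among the 762 were fixed in advance. TPM over all symbols changed the sign of 8 of the 35 members in the second comparison and of 14 in the third. No paired analysis was possible because each group has 1 library, and no library could be left out of a group. Depth was unknown.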

Other observations

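Genes that these complexes are known to hold silent were mostly low in all 3 libraries. Of 38 genes that Polycomb silences in many cell types, 23 were below a mean of 1 FPKM. Of all 21637 symbols left after small RNAs were removed, 11399 reached that mean, so a low level was common outside this list too. Most of the 38 are developmental regulators, and a few, such as CDKN2A, are cell cycle genes. Of the 15 kept, 2 were at least 1.5-fold higher with NANOG than with empty vector and 0 lower. These are small counts beside the 3.47% and 5.25% of all genes kept. The 2 higher genes were the homeobox gene MSX2 and the zinc finger gene GATA2. MSX2 was at 2.22 FPKM with empty vector, 5.30 FPKM with NANOG and 4.45 FPKM with NANOG and HDAC1 siRNA. GATA2 was at 5.17, 8.75 and 7.46 FPKM. Neither gene was higher with HDAC1 siRNA than with GFP siRNA (-0.21 and -0.20). In that comparison 0 of the 15 passed 1.5-fold, where 0.675% of all genes kept were higher and 1.43% lower. Against empty vector, NANOG with HDAC1 siRNA had 1 of the 15 higher, MSX2 (0.76), and 0 lower. The shares of all genes kept there were 1.78% and 3.44%. CDKN2A, which encodes p16 and is 1 of the 15, was at 274, 285 and 278 FPKM, named after its values were seen.

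Of 18 germline genes that DNA methylation silences in somatic cells, 15 were below a mean of 1 FPKM, where 11399 of all 21637 symbols reached it. The other 3 were TDRD9 at 56.5, 43.9 and 44.2 FPKM, SYCE1 at 35.4, 32.3 and 34.2 FPKM, and TEX15, named after its values were seen, at 2.7, 2.60 and 2.78 FPKM. None of the 3 passed 1.5-fold in any comparison, where at most 5.25% of all genes kept did so in either direction.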
